A study of Homo sapiens with 9 samples.

Results

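Small nucleolar RNAs (snoRNAs) are short nuclear RNAs that guide the chemical modification of other RNAs, above all ribosomal RNA. Those of the C/D class, whose genes are named SNORD, direct 2′-O-methylation by fibrillarin, and those of the H/ACA class, named SNORA, direct pseudouridylation by dyskerin. Most human snoRNAs are cut out of introns of host genes, many of which encode ribosomal proteins or translation factors, whereas a few such as U3 have promoters of their own and are needed for cleavage of the ribosomal RNA precursor. Of the 524 gene identifiers whose name starts with SNORA or SNORD, 77 were chosen by their measured values, an FPKM above 0 in at least 5 of the 9 libraries, with each Ensembl identifier kept apart. These were 43 SNORA and 34 SNORD genes, and 29 of them (15 SNORA and 14 SNORD) were above 0 in all 9 libraries. Another 62 identifiers were above 0 in 1 to 4 libraries, and 385 were listed at 0 throughout.

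The libraries are RNA-seq of U937, a human monocytic cell line, in 3 stable lines with a doxycycline-inducible retroviral construct. The AE line (clone #4) expresses AML1-ETO, the EG line (clone #14) expresses ETO2-GLIS2, and the CTR line, whose genotype label is WT, carries the empty vector. Each fusion line is 1 clone grown from a single cell, so clone and construct cannot be told apart. All lines received 5 µg/ml doxycycline and were sampled at 0, 12 and 48 h, with 1 library for each of the 9 conditions. The CTR line therefore measures what the drug and the time in culture do without a fusion protein, and no difference between conditions has a replicate check.

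RUNX1T1, the gene of the ETO moiety, was at 0.512, 22.2 and 28.7 FPKM in the AE line at 0, 12 and 48 h, against at most 0.024 FPKM in the CTR line. In the EG line, CBFA2T3, which encodes ETO2, was at 4.10, 11.4 and 12.6 FPKM at 0, 12 and 48 h, and GLIS2 at 2.39, 6.79 and 8.85 FPKM. The myeloid markers LYZ and SPI1 were at 45.1 FPKM or more and 11.9 FPKM or more in every library, while CD3E, CD3D, HBB and EPCAM were listed at 0 in all, CD14 reached 0.0802 FPKM at most, and CD68 0.0283 FPKM at most.

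FPKM scales read numbers by gene length and library size, so in genes this short a single read is worth a large value. The members were 66 to 758 bases long, with a median of 135 bases for SNORA and 85.5 bases for SNORD, and 1 read stood for between 0.0715 and 1.0 FPKM. The whole reads behind the FPKM values were recovered for all 77 members. Over the 9 libraries together a member had between 5 and 237 reads, with a median of 27, and 57 members had fewer than 50. Library totals ranged from 15136399 to 18443639 reads on genes. The libraries were made from total RNA with a kit that selects polyadenylated RNA, and mature snoRNAs carry no poly(A) tail. The reads therefore describe what this selection retained and not the cells' pool of mature snoRNAs, and reads from a mature snoRNA and from its precursor cannot be told apart.

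The sequences below are those of members on which the results turn. They were read by Ensembl identifier from GENCODE release 44, on the strand of the gene. In the C/D genes the capitals mark the C box letters TGATGA within the first 25 bases and the D box letters CTGA within the last 25 bases. First are the 3 members inside the nucleostemin gene GNL3, then SNORD94, SNORD14A (U14) and SNORD17, the member with the most reads.
SNORD19: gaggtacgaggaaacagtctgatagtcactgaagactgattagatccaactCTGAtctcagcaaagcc
SNORD19C: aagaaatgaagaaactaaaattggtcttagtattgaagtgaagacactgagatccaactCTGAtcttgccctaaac
SNORD69: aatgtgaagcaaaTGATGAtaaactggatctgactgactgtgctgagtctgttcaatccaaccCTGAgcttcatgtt
SNORD94: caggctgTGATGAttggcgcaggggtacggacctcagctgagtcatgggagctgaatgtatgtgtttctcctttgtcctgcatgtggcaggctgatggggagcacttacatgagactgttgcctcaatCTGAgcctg
SNORD14A: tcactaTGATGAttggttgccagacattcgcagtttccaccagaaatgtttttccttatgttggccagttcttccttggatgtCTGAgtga
SNORD17: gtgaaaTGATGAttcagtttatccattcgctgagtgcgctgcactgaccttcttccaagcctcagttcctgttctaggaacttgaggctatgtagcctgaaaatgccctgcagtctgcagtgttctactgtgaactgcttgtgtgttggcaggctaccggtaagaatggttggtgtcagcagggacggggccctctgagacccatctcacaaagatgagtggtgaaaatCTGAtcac

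In the H/ACA genes the capitals mark the letters ACA within the last 6 bases. SNORA66, SNORA11F and SNORA33 are members with called changes. SNORA63 is given by the member inside INPP5B (ENSG00000252448) and by the gene inside EIF4A2 (ENSG00000200320), which is no member.
SNORA66: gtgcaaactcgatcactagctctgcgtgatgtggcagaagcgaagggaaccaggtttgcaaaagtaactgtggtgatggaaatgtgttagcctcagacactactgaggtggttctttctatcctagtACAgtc
SNORA11F: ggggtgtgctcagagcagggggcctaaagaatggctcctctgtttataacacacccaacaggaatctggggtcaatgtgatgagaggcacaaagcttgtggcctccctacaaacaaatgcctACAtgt
SNORA33: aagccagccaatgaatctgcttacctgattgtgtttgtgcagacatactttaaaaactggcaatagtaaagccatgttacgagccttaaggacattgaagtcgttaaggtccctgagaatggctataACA
SNORA63 in INPP5B: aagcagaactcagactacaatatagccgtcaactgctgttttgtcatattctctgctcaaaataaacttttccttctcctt
SNORA63 in EIF4A2: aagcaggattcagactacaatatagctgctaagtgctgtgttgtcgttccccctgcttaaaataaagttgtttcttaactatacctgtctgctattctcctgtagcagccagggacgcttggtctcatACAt

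A sequence was found for 75 of the 77 members. ACA stood in the last 6 bases of 35 of the 42 SNORA members with a sequence (83.3%), against 152 of 189 SNORA identifiers in all (80.4%). TGATGA stood in the first 25 bases of 21 of the 33 SNORD members (63.6%) and of 186 of 274 SNORD identifiers (67.9%), and in none of the SNORA members. CTGA stood in the last 25 bases of 29 of the 33 SNORD members (87.9%) and of 8 of the 42 SNORA members (19%). Over all identifiers, CTGA stood there in 243 of 274 SNORD (88.7%) and in 20 of 189 SNORA identifiers (10.6%). Apart from CTGA in the SNORA class, these shares were close between members and all identifiers of a class. SNORD19 and SNORD19C, both in GNL3, have the D box letters but not TGATGA at the 5′ end. The 81 bases of the SNORA63 gene inside INPP5B aligned to bases 1 to 76 of that inside EIF4A2 with 20 edits, an identity of 75.3%, and its 3′ end lacks ACA. Another SNORA63 member (ENSG00000199473) had 5 reads in all.

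SNORD3A, the gene of U3, is much longer in the annotation, at 699 bases. Its first 212 bases are shown, with the box letters TGATGA and CTGA in capitals.
SNORD3A: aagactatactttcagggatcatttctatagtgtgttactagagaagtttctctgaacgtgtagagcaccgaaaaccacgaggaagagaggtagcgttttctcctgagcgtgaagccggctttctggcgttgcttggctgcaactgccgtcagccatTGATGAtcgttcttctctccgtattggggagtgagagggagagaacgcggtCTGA
These 212 bases differed by 1 edit from the start of SNORD3B-1, a second U3 gene of 758 bases, and the whole SNORD3A sequence was 98.9% identical to it. Reads of such near-identical genes may be split or lost in counting, so the values of each are uncertain and the pair is also given as a sum.

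The position of the members in the genome was read from the annotation for the 75 identifiers it holds. Of these, 62 (82.7%) lay inside a gene on the same strand, in 54 host genes, and 55 of the 62 were in protein-coding hosts. Ribosomal protein genes hosted 10 members. A further 10 lay only inside a gene on the opposite strand, and 3 outside genes. The identifiers at 0 were inside a same-strand gene about as often, 269 of 331 (81.3%), but they differed in 2 other respects. A same-strand exon of another gene overlapped 6 of the 75 members (8%) and 146 of the 331 identifiers at 0 (44.1%), and reads over features of more than 1 gene are dropped by the default counting. The host genes of the members had a median mean level of 22.7 FPKM, against 0.669 FPKM for those of the identifiers at 0.

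SNORD13 (U13), SNORD118 (U8), both SNORD22 (U22) identifiers, SNORA73A and SNORA73B (U17) and SNORD15A were listed at 0 in all 9 libraries. SNORD118 and SNORD15A overlap a same-strand exon, of TMEM107 and RPS3, as does the SNORA63 gene inside EIF4A2. SNORD15B, the other U15 gene of RPS3 (chromosome 11, 75404421 to 75404566 of GRCh38.p14), was above 0 in 8 libraries with 42 reads, of which 15 were in the AE line at 12 h. SNORA42 is given in the RefSeq table as an earlier symbol of SNORA80E, which lies in KHDC4. This member had 3, 5 and 4 reads in the CTR line, 1, 1 and 11 in the AE line and 5, 2 and 1 in the EG line, too few in any pair to be called.

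The members just inside the limit of 5 libraries were 11 genes with mean levels of 0.205 to 1.84 FPKM and 5 to 24 reads. SNORD93 (19 reads, in SNHG26), SNORA13 (17 reads, in EPB41L4A-AS1 and overlapping an exon of it) and SNORA30 (16 reads, in SRCAP) had the highest mean FPKM among them, and SNORD3B-1 was also one of them. Just outside were 6 genes above 0 in exactly 4 libraries, at 0.334 to 1.02 FPKM and 6 to 11 reads, led by SNORD99 in SNHG12 with 11 reads, SNORD12C in ZFAS1 with 7 and SNORD53 in WDR43 with 6.

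Since single members had so few reads, each class was first summed. The SNORA members together had 178, 201 and 208 reads at 0, 12 and 48 h in the CTR line, 155, 209 and 225 reads in the AE line, and 134, 189 and 217 reads in the EG line. As RPM, reads per 1000000 reads on genes, these sums were 10.9, 13.3 and 13.5 in the CTR line, 9.35, 13.5 and 14.8 in the AE line, and 7.27, 10.6 and 13.3 in the EG line. In such bulk RNA, fewer cells of a kind and less RNA per cell cannot be told apart. In each line both doxycycline libraries were above the 0 h library, and the EG line started from the lowest level. Against 0 h of the same line, the log2 ratio in the CTR line was 0.28 at 12 h (95% interval -0.02 to 0.58) and 0.31 at 48 h (0.01 to 0.60). In the AE line it was 0.54 (0.23 to 0.84) and 0.66 (0.36 to 0.97), and in the EG line 0.54 (0.21 to 0.87) and 0.87 (0.55 to 1.19), which is 1.83-fold. The intervals are exact and cover counting error only, not the variation between cultures. Set against the empty vector line, the change in the EG line at 48 h was higher by 0.56 (0.13 to 1.0), and those of the AE line at 12 and 48 h and the EG line at 12 h by 0.26 (-0.18 to 0.69), 0.36 (-0.07 to 0.79) and 0.26 (-0.19 to 0.71). Without the SNORA63 gene inside INPP5B, left out after its values were seen, the EG difference at 48 h was 0.39 (-0.06 to 0.84), an interval that holds 0.

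The SNORD members together had 211, 173 and 211 reads in the CTR line, 216, 248 and 211 reads in the AE line, and 141, 189 and 161 reads in the EG line. The log2 ratios to 0 h were -0.18 (-0.48 to 0.11) and 0.08 (-0.20 to 0.36) in the CTR line, 0.30 (0.03 to 0.57) and 0.09 (-0.19 to 0.37) in the AE line, and 0.47 (0.15 to 0.79) and 0.37 (0.03 to 0.70) in the EG line. Scaled to the library total, both fusion lines were thus above their 0 h level at 12 h, and at 48 h the EG line alone had an interval above 0. Over the members free of exons of other genes, chosen after seeing the data, the AE value at 12 h was 0.27 (-0.003 to 0.55) and the EG value at 48 h 0.23 (-0.13 to 0.58), so that both intervals held 0. The changes exceeded those of the CTR line at 12 h, by 0.49 (0.08 to 0.89) in the AE line and 0.65 (0.21 to 1.09) in the EG line. At 48 h the differences were 0.01 (-0.39 to 0.41) and 0.29 (-0.16 to 0.73).

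The SNORD sum joins genes that moved in opposite directions, because the U3 genes were lower after doxycycline. Leaving out SNORD3A and SNORD3B-1, a choice made after their values were seen, the other 32 SNORD genes had 183, 169 and 203 reads in the CTR line, 138, 242 and 202 in the AE line and 126, 187 and 158 in the EG line. The log2 ratios were then -0.01 (-0.32 to 0.30) and 0.23 (-0.07 to 0.53) in the CTR line, 0.91 (0.61 to 1.23) and 0.67 (0.35 to 1.0) in the AE line, and 0.61 (0.28 to 0.95) and 0.50 (0.15 to 0.85) in the EG line. The AE line at 12 h was 1.88-fold its 0 h level and exceeded the change in the CTR line by 0.93 (0.48 to 1.37). For the AE line at 48 h and the EG line at 12 and 48 h the differences from the CTR line were 0.44 (0.00 to 0.89), 0.63 (0.16 to 1.09) and 0.27 (-0.19 to 0.73).

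**Figure D1:**
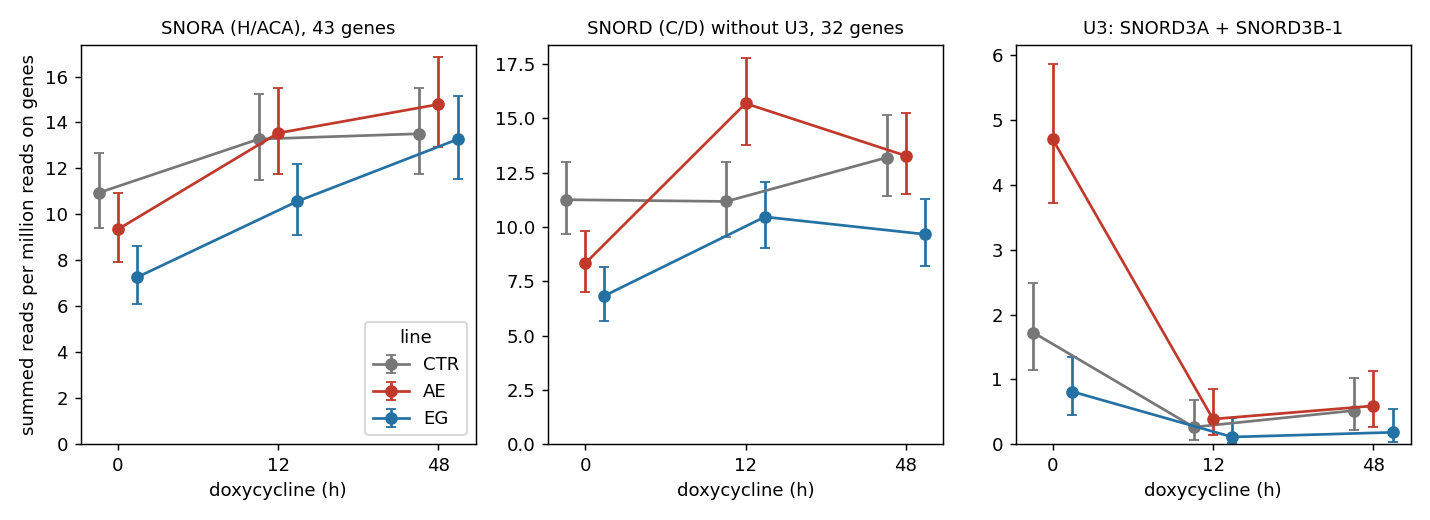
Summed RPM, reads per 1000000 reads on genes, of the SNORA members, of the SNORD members without the U3 genes, and of the 2 U3 genes, at 0, 12 and 48 h of doxycycline in the CTR (grey), AE (red) and EG (blue) lines. Points are single libraries and bars are exact 95% Poisson intervals. The SNORA sums are higher at 12 and 48 h than at 0 h in each line, while the U3 genes are lower, from 1.72, 4.70 and 0.813 RPM at 0 h to at most 0.591 RPM.

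Compared directly, the log2 ratio of the SNORA sum exceeded that of the SNORD sum by 0.46 (0.04 to 0.89) in the CTR line at 12 h, by 0.57 (0.16 to 0.99) in the AE line at 48 h and by 0.50 (0.04 to 0.97) in the EG line at 48 h, and the other 3 intervals held 0. With the U3 genes left out of the SNORD sum, none of the 6 intervals was clear of 0, and the differences ran from -0.38 (-0.82 to 0.06) in the AE line at 12 h to 0.37 (-0.11 to 0.85) in the EG line at 48 h. A difference between the H/ACA and C/D classes beyond the U3 genes was therefore not detectable at this depth.

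The uninduced lines differed from each other before any doxycycline. Against the CTR line at 0 h, the EG line at 0 h had a lower sum of SNORA reads, with a log2 ratio of -0.59 (-0.93 to -0.26), and of SNORD reads, with -0.76 (-1.08 to -0.45). For the AE line these values were -0.23 (-0.55 to 0.09) and 0.01 (-0.27 to 0.29). Without the U3 genes the SNORD sum was lower than in the CTR line at 0 h in both, with -0.44 (-0.76 to -0.11) in the AE line and -0.72 (-1.06 to -0.38) in the EG line. The changes in the EG line, and those of the SNORD genes other than U3 in the AE line, are thus measured from a lower start than in the CTR line, and the changes of the 3 lines do not share a 0 h library.

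Scaling to the median ratio of 8870 genes with at least 100 reads in each library, instead of to the library total, lowered every log2 ratio to 0 h by 0.10 to 0.14. The SNORA sums were then 0.16 and 0.19 in the CTR line, 0.40 and 0.52 in the AE line and 0.44 and 0.75 in the EG line, all still above 0 h. The SNORD sums were -0.30 and -0.04 in the CTR line, 0.17 and -0.05 in the AE line and 0.37 and 0.25 in the EG line. The sign at 48 h thus turned in the CTR and AE lines, where the unscaled values were 0.08 and 0.09. Some unscaled lower limits were smaller than this lowering, so those intervals no longer stay clear of 0. They were 0.01 for SNORA in the CTR line at 48 h, and for SNORD 0.03 in the AE line at 12 h and 0.03 in the EG line at 48 h.

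Sums over gene names starting with RNU or MIR were also higher after doxycycline, as the SNORA sums were. The SNORD sums did not follow them in each comparison. The sum over gene names starting with RNU, mostly spliceosomal RNAs and their copies, had log2 ratios of 0.48 and 0.44 in the CTR line, 0.40 and 0.68 in the AE line and 0.33 and 0.94 in the EG line at 12 and 48 h, with every interval above 0. The sum over gene names starting with MIR had ratios of 0.37 and 0.16, 0.25 and 0.30, and 0.34 and 0.70 in the same order. These names were not limited to short genes, so the MIR sum may hold longer transcripts. Histone genes, whose transcripts mostly lack a poly(A) tail, had ratios of 0.22, 0.06 and 0.22 at 12 h and of -0.01, 1.72 and 0.53 at 48 h in the CTR, AE and EG lines. SCARNA genes had 8 to 20 reads per library, too few to show a change of this size. RN7SL1, the RNA of the signal recognition particle, was at 17.5, 16.8 and 32.2 RPM in the CTR line, at 31.1, 36.4 and 51.5 in the AE line and at 2.28, 2.24 and 2.38 in the EG line. The part of a shift common to short or tailless RNAs in the snoRNA result was not tested.

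**Figure D2:**
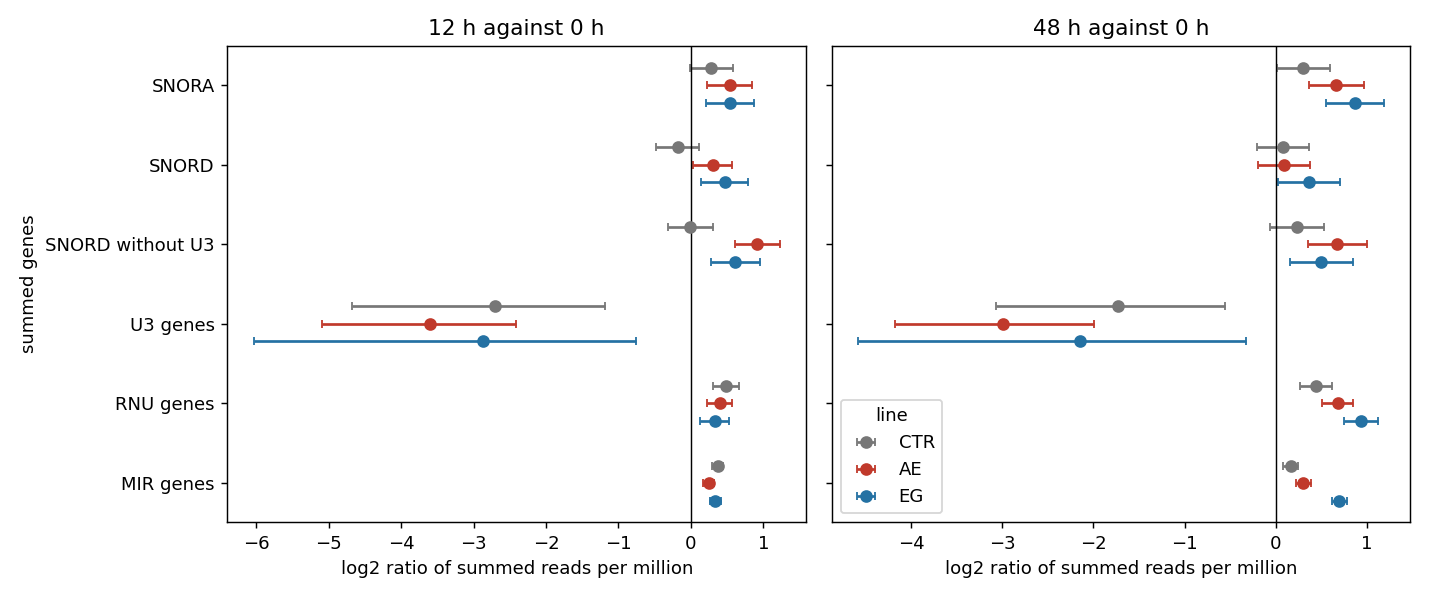
Log2 ratio of summed RPM at 12 h (left) and 48 h (right) to 0 h of the same line, for the SNORA and SNORD members, the SNORD members without U3, the 2 U3 genes, and the RNU and MIR genes, in the CTR (grey), AE (red) and EG (blue) lines. Bars are exact 95% intervals that cover counting error only. The U3 genes lie between -3.60 and -1.73 in all lines, and the RNU and MIR sums lie above 0 as the SNORA sums do.

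U3 is the snoRNA that guides early cleavages of the ribosomal RNA precursor and is transcribed from promoters of its own. SNORD3A had 24 reads at 0 h, 4 at 12 h and 6 at 48 h in the CTR line. In the AE line it had 71, 6 and 9 reads, and in the EG line 5, 2 and 2. SNORD3B-1 had 4, 0 and 2 reads in the CTR line, 7, 0 and 0 in the AE line, and 10, 0 and 1 in the EG line. Each line had its highest value of both genes at 0 h, and the CTR line, without a fusion protein, moved in the same direction as the others. As a sum, the pair was lower than at 0 h, with log2 ratios at 12 h of -2.70 (-4.68 to -1.19) in the CTR line, -3.60 (-5.09 to -2.41) in the AE line and -2.86 (-6.03 to -0.76) in the EG line. At 48 h the ratios were -1.73 (-3.07 to -0.56), -2.99 (-4.17 to -1.99) and -2.15 (-4.58 to -0.33). The differences from the CTR line were between -1.26 and -0.16, and their intervals all held 0. At 0 h the AE line was above the CTR line, with a log2 ratio of 1.45 (0.81 to 2.13), and the EG line below it, with -1.08 (-2.09 to -0.13).

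A member was called when its FPKM plus 0.01 changed more than 2-fold and the 2 libraries together held at least 20 reads on it. This left 10 to 12 members per comparison, 18 members in any and 3 in all 6. Their counts are given beside the share of all genes with at least 20 reads that passed the same limit. That share is not matched for reads, since 8870 genes had at least 100 reads in each library. Counting error is larger in genes with few reads, so the counts and this share are not like for like. In the CTR line, 2 of 12 members were called higher at 12 h (7.88% of all genes) and 5 lower (1.42%), and at 48 h 1 of 12 was called higher (9.91%) and 2 lower (2.97%). In the AE line, 4 of 11 were called higher at 12 h (8.22%) and 1 lower (2.3%), and at 48 h 4 of 10 higher (19.8%) and 1 lower (11.3%). In the EG line, 6 of 12 were called higher at 12 h (5.01%) and 0 lower (1.55%), and at 48 h 7 of 12 higher (14.3%) and 0 lower (2.8%). The 2 libraries together held 20 to 82 reads on these members, which leaves wide counting intervals. Of the called members, the 95% interval was clear of 0 for 2 higher and 3 lower in the CTR line at 12 h, 1 and 2 at 48 h, 4 and 1 in the AE line at 12 h, 2 and 1 at 48 h, and 2 and 6 higher in the EG line at 12 and 48 h.

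The median log2 fold change of the members with 20 reads was 0.46 and 0.20 in the CTR line, 0.48 and 0.62 in the AE line and 0.82 and 1.34 in the EG line at 12 and 48 h. Over all genes with 20 reads it was 0.17 and 0.18, 0.20 and 0.25, and 0.13 and 0.20. For the 4 to 7 SNORA members the median was 0.76 and 0.21, 1.98 and 1.21, and 0.76 and 1.67, and for the 5 to 7 SNORD members 0.40 and -0.19, 0.44 and -0.11, and 0.82 and 1.0. These members are those with the most reads, and a gene that is high in 1 of the 2 libraries reaches 20 reads more easily.

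**Figure D3:**
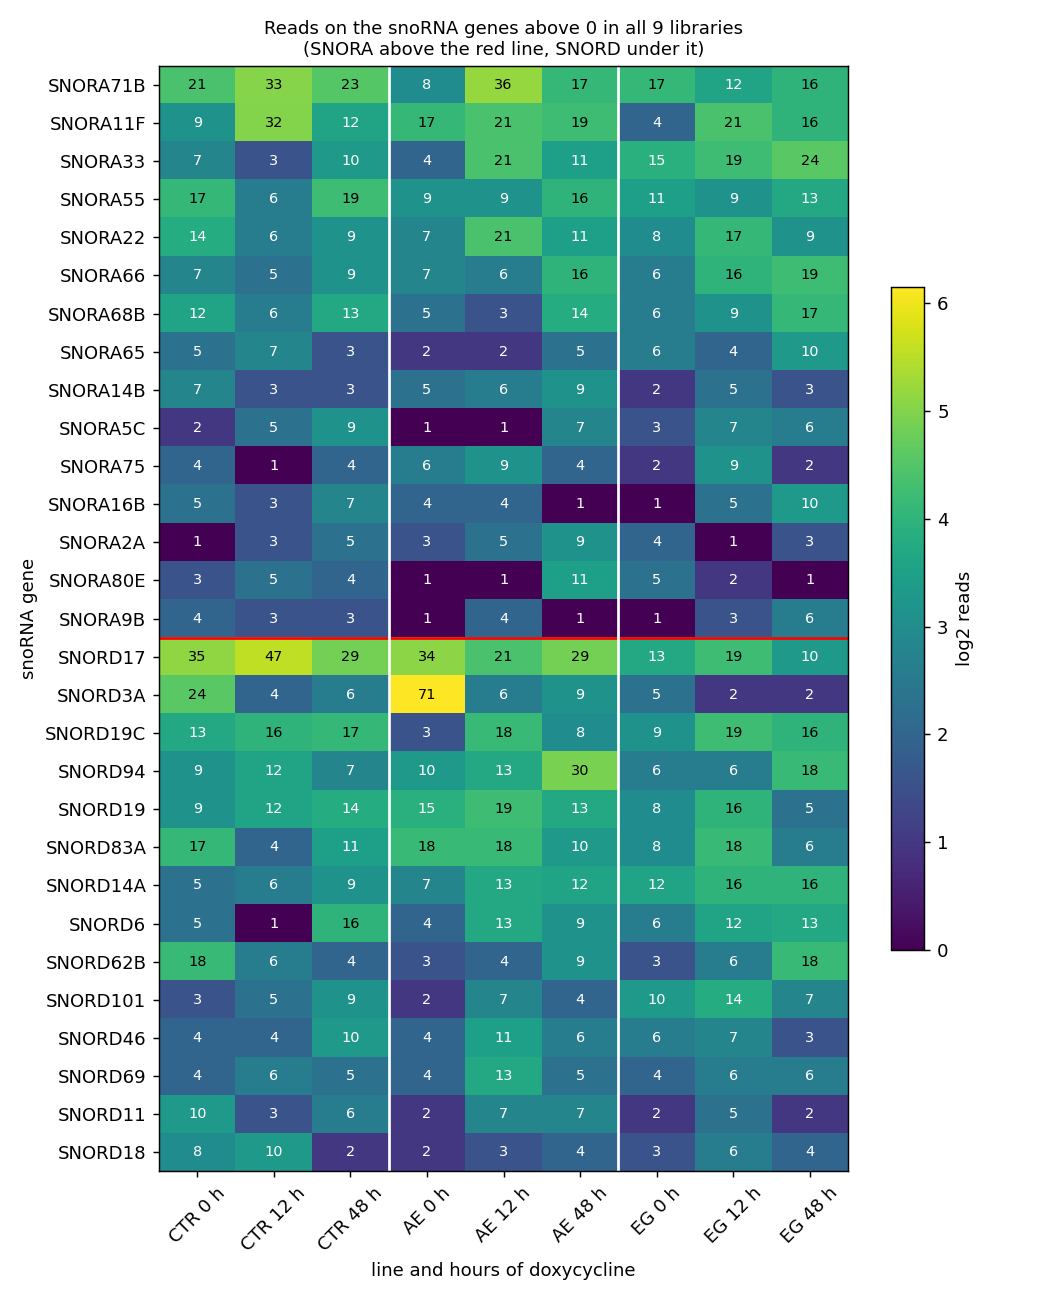
Reads on each of the 29 members above 0 in all 9 libraries (15 SNORA above the red line, 14 SNORD under it), by line and hours of doxycycline. The number in a cell is the read count and the colour its log2. Most cells hold under 20 reads, SNORD3A stands out with 71 reads in the uninduced AE line, and SNORD17 has between 10 and 47 reads.

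Among the H/ACA genes, SNORA63 inside INPP5B had the largest swing. It had 4, 20 and 6 reads at 0, 12 and 48 h in the CTR line, 0, 6 and 32 in the AE line and 0, 13 and 26 in the EG line. It was undetected at 0 h in both fusion lines, and the CTR line had its highest value at 12 h. For a ratio, the 0 h libraries were set to a floor of 3 reads each. Against this floor the level at 48 h was 11.6-fold in the AE line and 9.77-fold in the EG line. These ratios depend on the chosen floor and are not lower limits. The exact intervals at 48 h, for counting error only, had lower log2 limits of 3.16 in the AE line and 2.89 in the EG line. The gene lies on the opposite strand within an intron of INPP5B, a phosphoinositide phosphatase gene, which had 1454, 1661 and 2031 reads in the CTR line, 1379, 1243 and 1917 in the AE line and 1659, 1594 and 2306 in the EG line. INPP5B was thus highest at 48 h in each line, as this SNORA63 gene was in the AE and EG lines but not in the CTR line. The kit does not mark strand, so reads of this SNORA63 gene and of the INPP5B intron cannot be told apart.

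SNORA66, in an intron of the ribosomal protein gene RPL5 (chromosome 1, 92840719 to 92840851), was the H/ACA member called higher in both fusion lines at 48 h apart from SNORA63. It had 7, 5 and 9 reads in the CTR line, 7, 6 and 16 in the AE line and 6, 16 and 19 in the EG line. The 3 highest libraries were AE at 48 h and EG at 12 and 48 h. Its log2 fold change was 1.31 (-0.05 to 2.84) in the AE line at 48 h. In the EG line it was 1.46 (0.03 to 3.10) at 12 h and 1.83 (0.46 to 3.45) at 48 h. RPL5 itself changed by 0.33, -0.23 and -0.30 in the same order. SNORA66 also lies inside DIPK1A on the opposite strand, and without strand its reads and those of DIPK1A cannot be told apart.

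SNORA11F (chromosome 10, 73126080 to 73126207) lies inside NUDT13 on the opposite strand. It had 9, 32 and 12 reads in the CTR line, 17, 21 and 19 in the AE line and 4, 21 and 16 in the EG line. At 12 h it was higher both in the CTR line, by 1.93 (0.83 to 3.19), and in the EG line, by 2.43 (0.87 to 4.44), so the empty vector line did the same. At 48 h the values were 0.49 (-0.88 to 1.92), 0.28 (-0.74 to 1.32) and 2.17 (0.54 to 4.21) in the CTR, AE and EG lines. NUDT13 had 38, 57 and 56 reads in the CTR line, 76, 78 and 130 in the AE line and 43, 44 and 76 in the EG line, and without strand its reads and those of SNORA11F cannot be told apart.

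SNORA71B, in the noncoding host SNHG17, had the most reads of the H/ACA class, with 21, 33 and 23 in the CTR line, 8, 36 and 17 in the AE line and 17, 12 and 16 in the EG line. The uninduced AE library was the lowest. In the AE line it was higher at 12 h by 2.27 (1.14 to 3.59), with SNHG17 at 1.17, and at 48 h by 1.21 (-0.08 to 2.63), with SNHG17 at 0.43.

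SNORA33 in RPS12 had 7, 3 and 10 reads in the CTR line, 4, 21 and 11 in the AE line and 15, 19 and 24 in the EG line. It was higher in the AE line at 12 h by 2.49 (0.93 to 4.50), beside 0.65 for RPS12. SNORA22 in CCT6P1 had 14, 6 and 9 reads in the CTR line, 7, 21 and 11 in the AE line and 8, 17 and 9 in the EG line. At 12 h its log2 fold change was -1.12 (-2.79 to 0.35) in the CTR line, 1.69 (0.40 to 3.17) in the AE line and 1.13 (-0.16 to 2.55) in the EG line. SNORA55 in PABPC4, which overlaps an exon on its strand, had 17, 6 and 19, then 9, 9 and 16, and then 11, 9 and 13 reads in the CTR, AE and EG lines, and its only called change was -1.40 (-3.03 to 0.01) in the CTR line at 12 h.

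Of the C/D genes, SNORD17 in SNX5 (chromosome 20, 17962710 to 17962946) gave the firmest values and no called change. It had 35, 47 and 29 reads in the CTR line, 34, 21 and 29 in the AE line and 13, 19 and 10 in the EG line. The EG line was the lowest at each time. Its 6 log2 fold changes were between -0.59 and 0.59, and each interval held 0.

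SNORD94, which guides methylation of the spliceosomal U6 RNA, lies in PTCD3 (chromosome 2, 86135870 to 86136006). It had 9, 12 and 7 reads in the CTR line, 10, 13 and 30 in the AE line and 6, 6 and 18 in the EG line. The 48 h libraries of both fusion lines were the highest of the 9, and that of the CTR line was among the lowest. At 48 h it was higher by 1.71 (0.64 to 2.91) in the AE line and 1.75 (0.36 to 3.38) in the EG line, whereas PTCD3 changed by 0.26 and -0.04.

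The 3 members inside GNL3 had 26, 34 and 36 reads together in the CTR line, 22, 50 and 26 in the AE line and 21, 41 and 27 in the EG line. In both fusion lines the 12 h library was the highest. SNORD19C alone had 3, 18 and 8 reads in the AE line, a change of 2.68 (0.91 to 5.09) at 12 h, and 9, 19 and 16 in the EG line, with 1.12 (-0.09 to 2.45) and 1.0 (-0.26 to 2.36) at 12 and 48 h. SNORD19 in the EG line had 8, 16 and 5 reads, with 1.04 (-0.26 to 2.48) at 12 h. SNORD69 (chromosome 3, 52692736 to 52692812) had 4, 13 and 5 reads in the AE line and 4 to 6 in the other lines. GNL3 itself was at 52.7, 55.2 and 29.1 FPKM in the AE line and at 57.9, 60.3 and 41.6 FPKM in the EG line, so that it was lowest at 48 h.

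SNORD83A in RPL3 (chromosome 22, 39315213 to 39315307) had 17, 4 and 11 reads in the CTR line, 18, 18 and 10 in the AE line and 8, 18 and 6 in the EG line. It was lower in the CTR line at 12 h, with a log2 fold change of -1.98 (-4.01 to -0.37), and in the EG line at 12 h the value was 1.21 (-0.06 to 2.63). SNORD62B (chromosome 9, 131490486 to 131490571) had 18, 6 and 4 reads in the CTR line, 3, 4 and 9 in the AE line and 3, 6 and 18 in the EG line. The CTR and EG lines were in reverse order, with -2.09 (-4.11 to -0.49) and 2.75 (0.98 to 5.16) at 48 h.

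SNORD6 in TAF1D was higher in the CTR line at 48 h, by 1.76 (0.24 to 3.56), from 5, 1 and 16 reads. It had 4, 13 and 9 reads in the AE line and 6, 12 and 13 in the EG line. SNORD14A, U14 of the ribosomal protein gene RPS13 and needed for 18S ribosomal RNA formation, had 5, 6 and 9 reads in the CTR line, 7, 13 and 12 in the AE line and 12, 16 and 16 in the EG line. Both later libraries were above 0 h in each line, but no change of SNORD14A passed 2-fold with 20 reads.

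For the members inside a host gene the change of the host was set beside their own. With 20 reads this covered 7 to 11 members per comparison. The median of the member minus the host log2 fold change was 0.23 and 0.38 in the CTR line, 0.54 and 0.78 in the AE line and 0.88 and 0.84 in the EG line at 12 and 48 h. The member was above its host for 5 of 8 and 5 of 9 members in the CTR line, 8 of 9 and 5 of 7 in the AE line, and 9 of 11 and 7 of 9 in the EG line. The summed FPKM of the 54 host genes changed by -0.02 and 0.28 in the CTR line, 0.30 and 0.34 in the AE line and -0.14 and -0.11 in the EG line. In the EG line the summed FPKM of the hosts was thus lower, and the snoRNA sums higher, than at 0 h. The median log2 fold change of the host genes there was 0.11 at 12 h and -0.02 at 48 h. The lower sum therefore does not describe the typical host, and the snoRNA sums also hold members without a host.

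**Figure D4:**
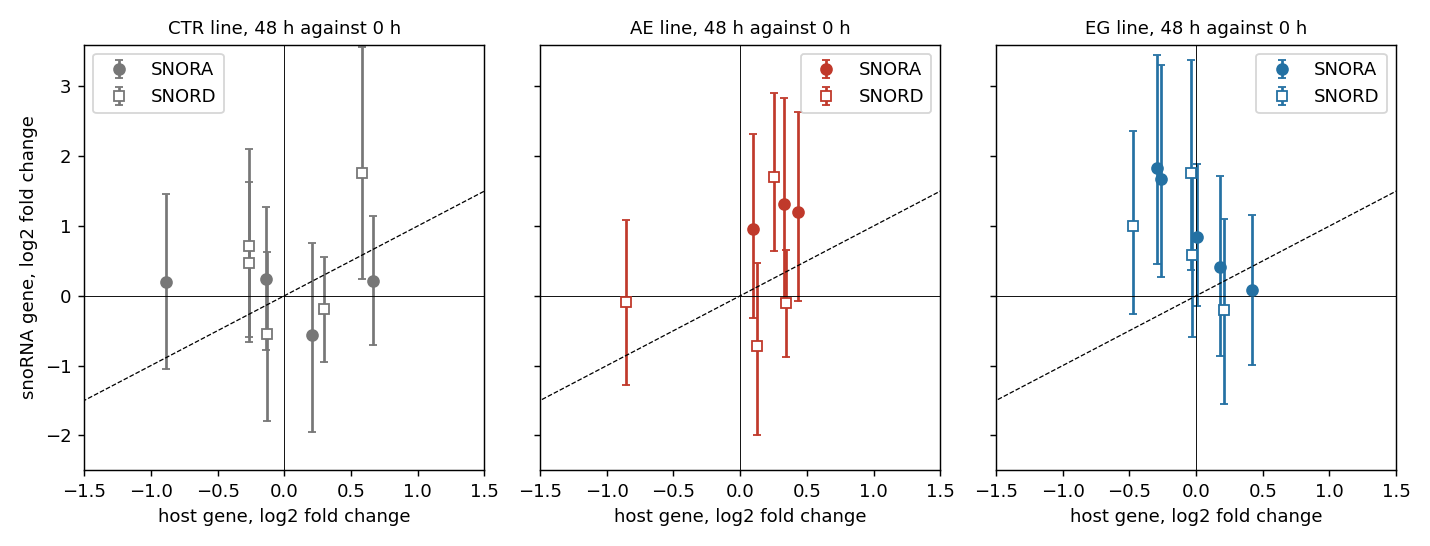
Log2 fold change at 48 h against 0 h of the host gene (horizontal) and of the snoRNA member inside it (vertical) in the CTR, AE and EG lines, for members with at least 20 reads in the 2 libraries. Filled circles are SNORA and open squares SNORD genes, bars are exact 95% intervals of counting error, and the dashed line marks equal change. In the EG line 7 of 9 members lie above the line, and in the CTR line 5 of 9.

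The genes of the snoRNA ribonucleoproteins were measured with far more reads. Of 33 names of core proteins, assembly factors, processing enzymes and POLR2A, 32 were found, all but PAPD5. Of these, 31 were not past 2-fold in any of the 6 comparisons. The other was XRN1, a 5′ to 3′ exonuclease, which was at 5.78, 5.66 and 16.4 FPKM in the AE line at 0, 12 and 48 h. Its log2 fold change at 48 h was 1.50 (1.40 to 1.60). Of all genes with 20 reads, 5.01% to 19.8% were called higher and 1.42% to 11.3% lower in the 6 comparisons, a share not matched for reads. At 12 h, 24 of the 32 were higher in the AE line and 29 of 32 in the EG line, with medians of 0.21 and 0.20 beside -0.01 in the CTR line. Over all genes with 20 reads the medians at 12 h were 0.20, 0.13 and 0.17 in the AE, EG and CTR lines, close to the AE value of the list. At 48 h the medians of the list were -0.05 in the CTR line, -0.15 in the AE line and -0.05 in the EG line, beside 0.18, 0.25 and 0.20 over all genes.

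FBL, the fibrillarin gene whose product methylates at C/D sites, was at 88.4, 79.0 and 67.8 FPKM in the CTR line, 84.8, 81.1 and 45.3 FPKM in the AE line and 65.4, 56.9 and 40.9 FPKM in the EG line. It was lowest at 48 h in each line, with log2 fold changes of -0.38 (-0.46 to -0.30), -0.91 (-1.0 to -0.82) and -0.68 (-0.77 to -0.59). RUVBL2, an ATPase of snoRNA ribonucleoprotein assembly, had -0.57, -1.0 and -0.81 at 48 h in the same order. DKC1, the dyskerin gene of the H/ACA class, was at 30.7, 39.1 and 22.4 FPKM in the AE line and 26.2, 35.1 and 25.2 FPKM in the EG line, against 31.9, 32.2 and 32.5 FPKM in the CTR line. In both fusion lines it was highest at 12 h, as were NOP58 and GAR1. NOP58 was highest at 12 h in the CTR line too, with 33.01, 34.55 and 27.7 FPKM at 0, 12 and 48 h.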

How the data were processed

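RNA-seq libraries of 9 conditions were grouped by line and time from the labels. Per the labels and the study's methods, the authors prepared total RNA with a TruSeq v2 kit, aligned reads to hg38 with HISAT2 (2.0.5), handled alignments with SAMtools (1.7), counted with HTSeq (0.9.1) at default settings, and deposited FPKM per Ensembl gene. DESeq2 (1.22.2) is also listed in the submitters' processing notes. The annotation version is not given in the sources used here.

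The members and gene lists were chosen with earlier results of these data known. Whole reads were recovered from the deposited FPKM values as FPKM times length times library total, in Python 3.11.15 using the packages scipy 1.17.1, pandas 2.3.3 and numpy 2.4.6, and the figures were made in matplotlib 3.10.9. The total of a library follows from the value of 1 read in genes with a single exon. Lengths came from GENCODE release 44 for 74 members and from the values for the others. In data simulated for the 84 snoRNA genes tested, 98.8% had exactly the simulated reads in all libraries. The call rule and intervals were also tested on simulated data.

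Each line at 12 and 48 h was compared with its own 0 h library (6 comparisons). With 1 library per condition there is no test. Ratios of reads carry exact Clopper-Pearson intervals, differences of ratios exact conditional intervals, and levels exact Poisson intervals, all at 95% and for counting error only. The reads carry no molecular identifiers, so they may count a molecule more than once. Fold changes of single genes use FPKM plus 0.01, a filter of 20 reads in the 2 libraries and a 2-fold limit. Alternatives covered the scaling, pseudocount (1 FPKM), read filter (50 reads, a mean of 1 FPKM, or none), fold limit (3-fold) and choice of members.

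Named members are snoRNAs with known roles in ribosomal RNA processing or from earlier results, the 6 with the most reads in each class, the 3 called members with the highest rise and deepest fall per class and line at 48 h, and the 3 of highest mean FPKM on each side of the limit of 5 libraries. SNORD3B-1, SNORD69 and the ribonucleoprotein genes with values were named after their values were seen. Coordinates are those of GRCh38.p14 in the RefSeq table, for 41 members whose symbol had 1 entry of the same length. Placement inside genes comes from GENCODE on GRCh37, from which no coordinates were taken. Some of the cell type markers checked are not reported here.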

Additional observations from a re-analysis of the deposited data

How the results depend on the processing

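No paired analysis was possible because each condition has 1 library and the labels carry no replicate numbers. Counting error and the 1 clone per fusion limit all values, and a 2-fold change of a single member is within counting error at most depths seen here. Without SNORD3A and SNORD3B-1, chosen after seeing the data, the SNORD log2 ratio in the AE line was 0.91 at 12 h and 0.67 at 48 h, and the difference from the CTR line 0.93 and 0.44. With FPKM summed in place of reads, which gives the long U3 genes less weight, these ratios were 0.98 and 0.62. With only the members above 0 in all 9 files, a set that holds SNORD3A, the SNORD ratio in the AE line at 12 h turned to -0.005 (-0.32 to 0.31), and the SNORA ratios in the AE line were 1.0 and 1.04. The SNORD ratios at 48 h turned to -0.10 in the CTR line and -0.08 in the AE line with that set. With 50 reads required, the member minus host change rested on SNORD17 in SNX5 alone in 3 of the 4 comparisons that could be made. It was then -0.49 in the CTR line at 48 h, and -1.18 and -0.45 in the AE line at 12 and 48 h. These values do not describe the other members. The SNORD median in the AE line, then over SNORD17 and SNORD3A, went from 0.44 to -2.01 at 12 h and from -0.11 to -1.47 at 48 h. The members called were 0 and 0 in the CTR line, where only SNORD17 and, at 12 h, SNORA71B had 50 reads. In the AE line, over SNORD17 and SNORD3A, they were 1 and 1. No member reached 50 reads in the EG line, so its 0 and 0 are counts over no members. With a mean of at least 1 FPKM the members called were 27 and 26 in the CTR line, 31 and 35 in the AE line and 25 and 24 in the EG line, and with no filter 52 and 36, 43 and 50, and 46 and 48. With a 3-fold limit they were 4 in the CTR line at 12 h, 3 in the AE line at 48 h and 1 in the EG line at 12 h. No share of all genes is given for these alternative limits. The counts therefore show only how far calling depends on the filter, and nothing particular to the members. Rescaling by the median ratio called 3 ribonucleoprotein genes in the AE line at 48 h, against 1. The interval of the SNORA ratio in the CTR line at 48 h reached 0 with only the members above 0 in all 9 files (0.25, -0.12 to 0.62), over names with 1 member identifier (0.29, -0.02 to 0.60) and without SNORA63 in INPP5B (0.30, -0.005 to 0.60). At 12 h it was clear of 0 over members free of exons of other genes (0.45, 0.13 to 0.78), as was the SNORD ratio without SNORD17 (-0.38, -0.72 to -0.04). The AE minus CTR difference of the SNORD sum at 48 h, 0.01, was -0.004 without SNORD17 and -0.01 rescaled. The cause of the shifts was not tested.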
